A study of Mus musculus with 9 samples.

Results

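The genes described here are the classical cadherins Cdh1 and Cdh2, the Celsr genes Celsr1, Celsr2 and Celsr3, and the catenins Ctnnb1, Ctnna1, Ctnnd1 and Jup, 9 genes of the 18193 that had a probe set of their own on the array. They were taken by symbol, with every probe set annotated to 1 of them and to no other gene, which gave 18 probe sets. The list was chosen by a result of the same arrays, since the difference of Cdh1 between knockout and wildtype cells was known when the genes were picked. The differences between knockout and wildtype are therefore given for the 9 genes as levels, fitted differences and errors, with no p-value, and a count of genes that passed the test is no independent evidence of a change.

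RNA was taken from sorted invariant NKT (iNKT) cells of the mouse thymus, which are T cells with a nearly fixed receptor for lipids held by CD1d. The 9 arrays fall into 4 Utx knockout and 5 Utx wildtype samples, each labelled as a biological replicate, from animals of 8 to 12 weeks matched for sex and age. Utx, encoded by Kdm6a on the X chromosome, is a histone H3 demethylase, and the comparison asks what its loss changes in these cells. The titles name 3 batches: batch 1 holds KO1 and WT1, batch 2 holds KO2, KO3 and KO4 with WT2, and batch 3 holds WT3, WT4 and WT5, where KO and WT stand for knockout and wildtype replicates. The sources used here do not give the strain, the allele of Utx, any Cre line or whether animals were pooled.

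Classical cadherins are cell surface proteins that bind the same cadherin on a neighbouring cell through calcium-dependent outer domains. Inside the cell their tails bind p120-catenin (Ctnnd1), which keeps them at the surface, and either beta-catenin (Ctnnb1) or plakoglobin (Jup), which connect through alpha-catenin (Ctnna1) to actin. Beta-catenin is also the transcriptional partner of Tcf and Lef factors in Wnt signalling, a pathway used by developing thymocytes. Celsr proteins are adhesion G protein-coupled receptors with cadherin domains, known for planar cell polarity, and they do not bind catenins in the way classical cadherins do.

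Array medians ranged over 5.97 to 6.09 (log2). The interquartile ranges were less alike, at 3.80 to 4.29 on knockout arrays and 3.45 to 3.84 on wildtype arrays. WT2 had the lowest and KO4 the highest. Fits after scaling to 1 interquartile range are given below. The 4 probe sets of Kdm6a included 0 that passed the test, and its probe set of highest level read 9.62 to 10.07 on knockout arrays and 9.79 to 10.15 on wildtype arrays; which part of the gene was deleted is not given, so this does not check the labels. The iNKT marker Zbtb16, the lineage factor PLZF, averaged 10.72 ± 0.21 in knockout and 10.95 ± 0.19 in wildtype cells (log2, SD, n = 4 and 5), and Cd3e, a T cell receptor chain, 12.85 ± 0.14 and 12.87 ± 0.05. Of 10 iNKT cell markers tested, 3 fell and 0 rose: Cd44 by 1.23, Tbx21 by 1.08 and Il2rb by 1.01 on the log2 scale (adjusted p = 0.0135, 0.0276 and 0.0231 by limma). The summed level of this list (log2 of the summed linear values) was 14.53 to 14.76 on knockout arrays and 14.98 to 15.07 on wildtype arrays. Markers of other cells also differed. Among all genes tested, 7.88% passed as higher and 3.37% as lower. Of 16 double-positive thymocyte markers tested, 11 were higher and 0 lower in knockout cells, with a summed level of 15.62 to 16.15 on knockout arrays and 14.75 to 15.2 on wildtype arrays. Macrophage and dendritic cell markers had 3 of 16 higher (summed level 11.02 to 11.79 in knockout and 9.98 to 10.51 in wildtype cells) and B cell markers 2 of 9 (10.47 to 11.56 and 9.67 to 10.23). Their part in the results below was not tested. In bulk RNA, fewer cells that express a gene and less RNA per cell cannot be told apart.

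Across the 9 genes, Cdh1 was much lower in knockout cells, Celsr2 was about as much higher, and Jup was higher by a smaller step. The other genes had differences closer to 0. For the fit, each gene was represented by its probe set of highest mean level, and 8 of the 9 genes lay above a filter on low values (4.54, log2, the 25th percentile of all probe sets); Celsr3 lay under it. By limma with batch as a factor and a Benjamini-Hochberg adjusted p under 0.05 over 14524 genes, 2 of the 8 passed as higher and 1 as lower, where 7.88% of all genes tested passed as higher and 3.37% as lower. Either direction together was called in 11.3% of all genes. Over the 18 probe sets in a fit of all 45037, 2 passed as higher and 1 as lower, where 3.73% of all probe sets passed as higher, 2.67% as lower and 6.4% in either direction. Knockout lay wholly above wildtype for 4 of the 8 genes and wholly below for 1, where 22.2% and 12.7% of all genes tested did so (35% together). For the 18 probe sets these counts were 6 and 1, where 15.7% and 16.4% of all probe sets did so (32.1% together). Nothing is read from these counts, since the list was chosen on the same contrast. The median difference was 0.29 over the 8 genes and 0.11 over all genes tested (log2, knockout minus wildtype).

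**Figure D1:**
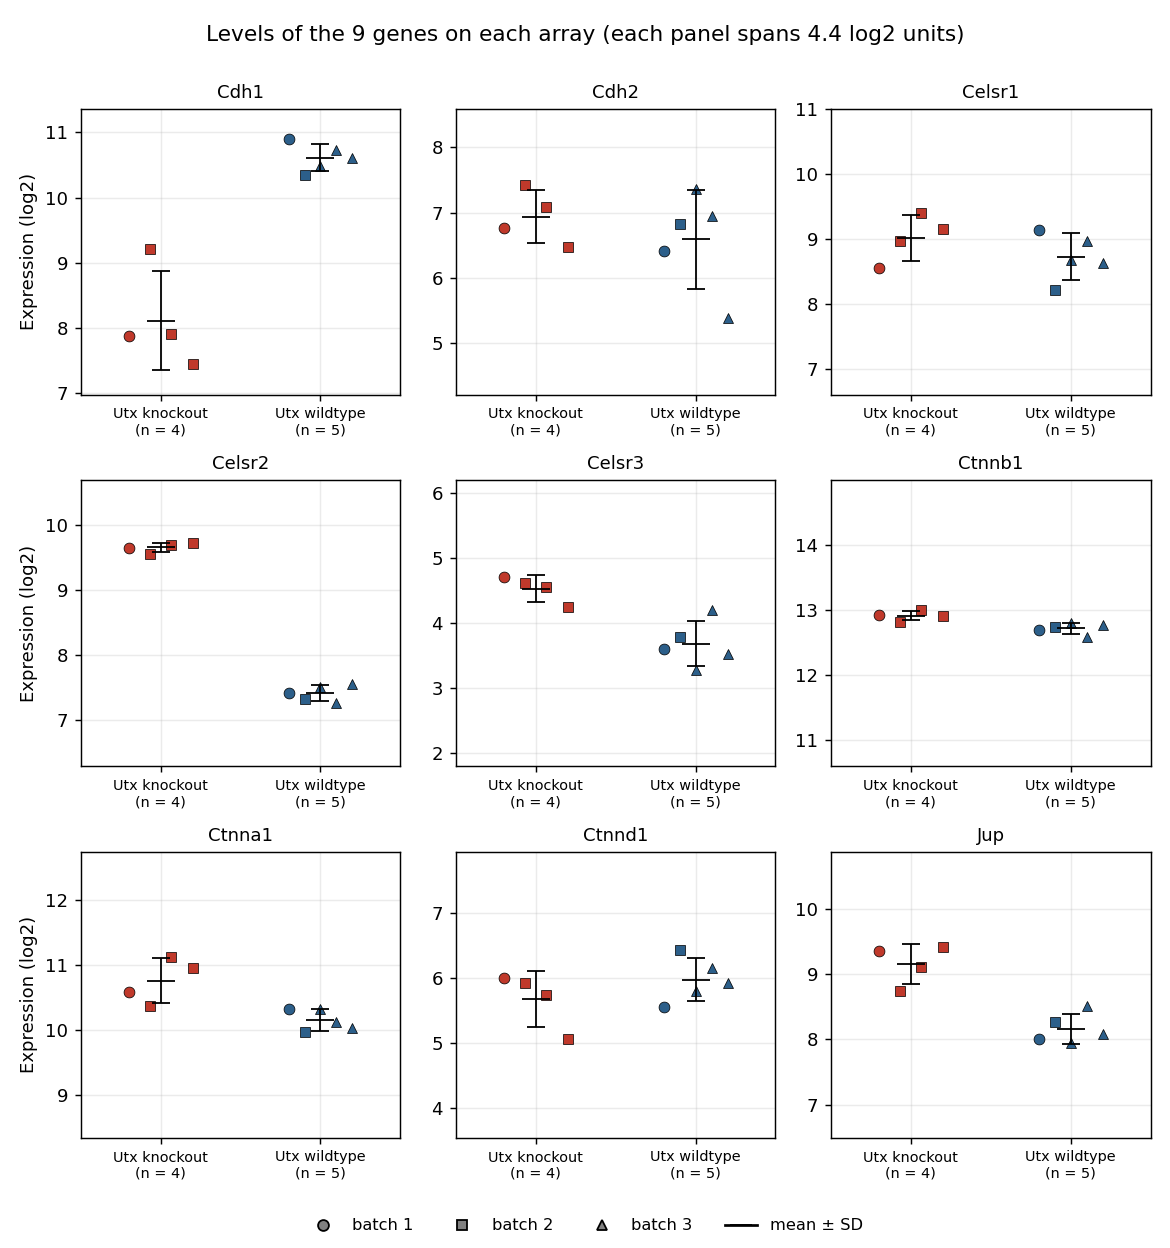
Expression (log2, vertical axis) of the 9 genes on each array, on the probe set of highest level, with Utx knockout (red, n = 4) left of Utx wildtype (blue, n = 5); symbols give the batch and bars the mean ± SD. Cdh1 lies at 7.44 to 9.21 on knockout arrays and at 10.35 to 10.90 on wildtype arrays, and Celsr2 at 9.56 to 9.72 and 7.25 to 7.56.

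Cdh1 encodes E-cadherin, the cadherin of epithelial cells that is also found on some lymphocytes and dendritic cells. Its 1 probe set read 7.87, 9.21, 7.91 and 7.44 (log2) in KO1 to KO4, and 10.90, 10.35, 10.48, 10.73 and 10.62 in WT1 to WT5. Every knockout array lay below every wildtype array, and KO2 stood between the other knockout arrays and the wildtype arrays. The fitted difference was -2.51 (SE 0.45, 95% interval -3.53 to -1.49), a 5.69-fold lower level in knockout cells. Its difference ranked 10 from the lowest of the 14524 genes tested. Within batches the difference was -3.02 in batch 1 and -2.16 in batch 2.

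Thymic epithelial cells are a known source of E-cadherin in the thymus. Of 10 of their markers tested, 1 passed as higher in knockout cells and 0 as lower, where 7.88% and 3.37% of all genes did so. The 1 was Ccl25, a chemokine, with a difference of 1.10. Foxn1, the master factor of these cells, averaged 5.23 ± 0.24 in knockout and 5.38 ± 0.18 in wildtype cells, and Epcam, an epithelial adhesion molecule, 6.98 ± 0.13 and 6.86 ± 0.34. Psmb11, a proteasome subunit of cortical epithelium, lay under the filter in both genotypes. The summed level of the list was 10.79 to 10.98 on knockout arrays and 10.7 to 10.87 on wildtype arrays, and the ranges overlapped. The part of these cells in the difference of Cdh1 was not tested.

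The genes whose pattern lay nearest to that of Cdh1 were Ctla2a, S100a6, Klrk1 and Hopx. Likeness was measured as the mean absolute difference, over the 9 arrays, between each gene's deviation from its own wildtype mean and that of Cdh1, and came to 0.17, 0.18, 0.21 and 0.21 (log2). Ctla2a encodes a cathepsin inhibitor, S100a6 a calcium-binding protein, Klrk1 the activating receptor NKG2D and Hopx a homeodomain-only transcriptional cofactor. On KO1 to KO4 the levels of Klrk1 were 8.91, 9.96, 8.24 and 8.95, and those of Hopx 8.36, 9.21, 8.60 and 7.89. In each of the 4 genes, as in Cdh1, KO2 was the knockout array of highest level, which the choice by likeness favours.

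Cdh2 encodes N-cadherin, the cadherin of neural and mesenchymal cells. On its probe set of higher level, KO1 to KO4 read 6.76, 7.42, 7.08 and 6.48, and WT1 to WT5 read 6.42, 6.83, 7.36, 6.95 and 5.38. The groups overlapped throughout, with WT5 the lowest array. The difference was 0.24 (SE 0.52, 95% interval -0.95 to 1.42), which leaves room for a change in either direction. The second probe set of Cdh2 averaged 4.70 ± 0.55 in knockout and 3.45 ± 0.17 in wildtype cells. Its difference was 1.23 (95% interval 0.46 to 1.99) with no overlap, but its mean over all arrays lay under the filter and it did not pass over all probe sets.

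Among the Celsr genes, Celsr2 stood apart. Its probe set of higher level read 9.65, 9.56, 9.69 and 9.72 (log2) in KO1 to KO4, and 7.42, 7.32, 7.51, 7.25 and 7.56 in WT1 to WT5. The groups were separated by a gap far wider than either range, and KO2 sat with the other knockout arrays. The fitted difference was 2.29 (SE 0.16, 95% interval 1.93 to 2.65), a 4.90-fold higher level in knockout cells, with 2.23 in batch 1 and 2.33 in batch 2. Its difference ranked 76 from the highest of the 14524 genes. The other probe set of Celsr2 did not show this: it averaged 4.64 ± 0.26 in knockout and 4.54 ± 0.08 in wildtype cells, with a difference of 0.09 (95% interval -0.37 to 0.56). Its level lay close to the filter of 4.54, and the median over both sets gave 1.19. The sources used here do not say which transcripts each set reads.

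Celsr1, the family member best known from skin and inner ear polarity, read 8.57, 8.97, 9.40 and 9.17 in KO1 to KO4 and 9.15, 8.22, 8.69, 8.98 and 8.63 in WT1 to WT5. The groups overlapped, and the difference of 0.34 (SE 0.32, 95% interval -0.38 to 1.06) was made of -0.58 in batch 1 and 0.96 in batch 2. Celsr1 did not pass, except at 0.96 in the fits without WT1 or KO1, which leave batch 1 out. Celsr3, known for axon guidance, read 4.70, 4.62, 4.54 and 4.23 on the knockout arrays and 3.59, 3.79, 3.28, 4.20 and 3.52 on the wildtype arrays. Its groups did not overlap, with a difference of 0.85 (95% interval 0.23 to 1.47). Its mean lay under the filter, and it did not pass in the fit over all probe sets. Its highest wildtype array, WT4, came close to its lowest knockout array, KO4.

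The promoters of the 2 genes that passed as higher, Celsr2 and Jup, are shown, out of 5 of the 9 genes found in the promoter table (Cdh1 was not among them), because the E-box CAGGTG, read as CACCTG on the other strand, is the element through which Zeb and Snail factors act on cadherin genes. Each run covers 250 bases before and 50 bases after the annotated start (RefSeq, GRCm38.p6), 5′ to 3′ on the strand of the gene, with E-boxes in capitals. Celsr2 lies at chr3:108415530-108415829 (minus strand) and Jup at chr11:100397741-100398040 (minus strand).
Celsr2: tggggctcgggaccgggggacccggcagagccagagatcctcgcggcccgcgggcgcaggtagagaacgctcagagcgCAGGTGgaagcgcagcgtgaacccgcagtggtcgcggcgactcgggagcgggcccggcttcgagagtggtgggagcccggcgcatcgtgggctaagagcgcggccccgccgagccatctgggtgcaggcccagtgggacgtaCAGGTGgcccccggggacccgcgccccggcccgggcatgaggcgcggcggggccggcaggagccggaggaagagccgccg
Jup: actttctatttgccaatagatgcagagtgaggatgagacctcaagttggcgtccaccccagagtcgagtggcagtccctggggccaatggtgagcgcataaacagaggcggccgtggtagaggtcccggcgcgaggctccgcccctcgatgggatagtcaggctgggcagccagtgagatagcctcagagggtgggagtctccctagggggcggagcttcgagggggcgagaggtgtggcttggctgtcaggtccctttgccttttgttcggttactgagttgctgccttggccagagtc
The window of Celsr2 holds 2 E-boxes and that of Jup 0. At least 1 is present in 20.2% and at least 2 in 2.88% of the 32851 windows of that length in the table. The windows have a GC content of 76.3% in Celsr2 and 60.7% in Jup, and the median of all windows is 52.7%. The shares were not taken among windows of like GC content, so they do not measure how unusual the count in Celsr2 is. E-box counts of the other genes among the 5 are not given. A match of letters is a description and does not show a bound site.

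**Figure D2:**
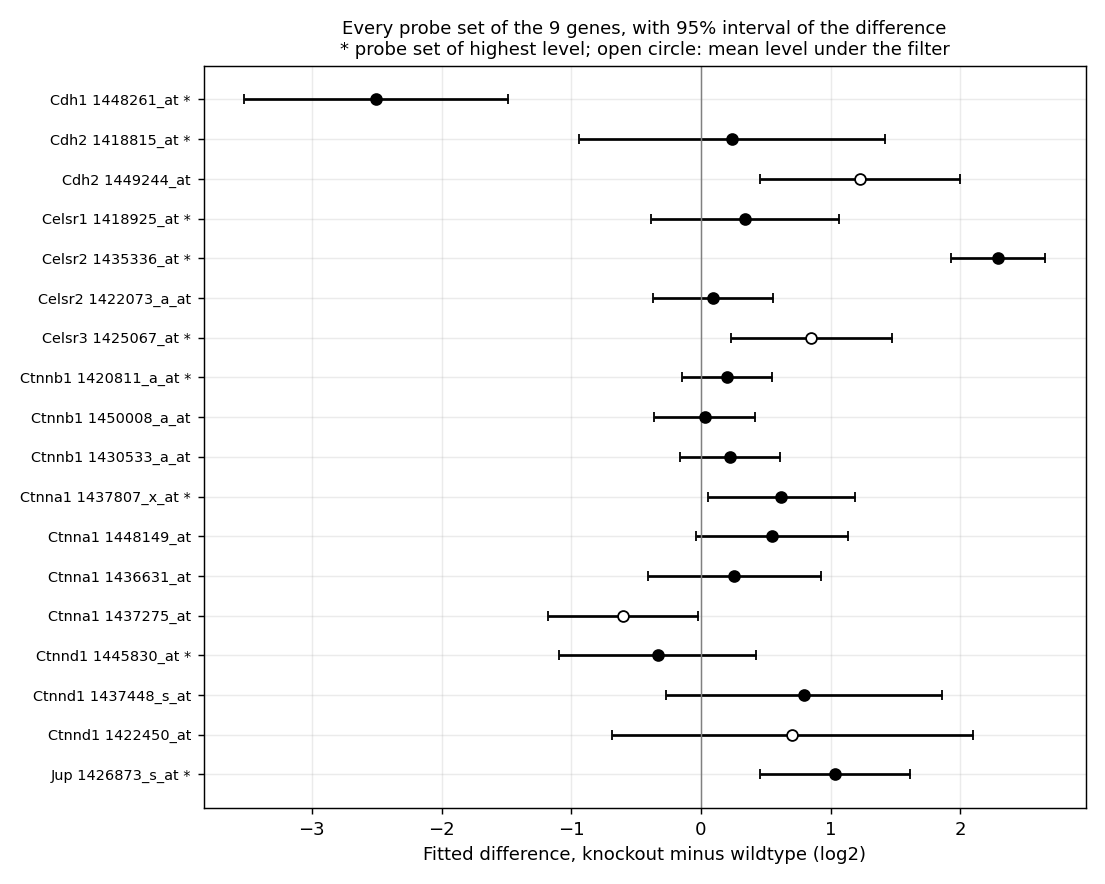
Fitted difference, knockout minus wildtype (log2, horizontal axis), of all 18 probe sets, with bars for the 95% interval; an asterisk marks the probe set of highest level and open circles a mean level under the filter of 4.54. Cdh1 at -2.51 and the upper Celsr2 set at 2.29 lie farthest from 0, the other Celsr2 set lies at 0.09, and the 3 sets of Ctnnb1 lie between 0.03 and 0.22.

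Among the catenins 1 gene, Jup, rose and 0 fell, where 7.88% of all genes tested passed as higher and 3.37% as lower. Jup, or gamma-catenin, can take the place of beta-catenin on cadherin tails and is also a desmosome protein. It read 9.36, 8.74, 9.11 and 9.42 in KO1 to KO4 and 8.01, 8.27, 7.95, 8.51 and 8.08 in WT1 to WT5. The groups did not overlap, and KO2 lay nearest to the wildtype arrays. Its difference was 1.03 (SE 0.25, 95% interval 0.46 to 1.61), a 2.05-fold higher level, with 1.35 in batch 1 and 0.82 in batch 2. This call was fragile: it ended in 7 of the 9 fits that each left out 1 array (0.82 to 1.35; the 2 that kept it were those without WT4 and without KO2), after another quantile normalization (0.76), after scaling to 1 interquartile range (0.78), without the batch 3 arrays (1.03) and without the batch 1 pair (0.82). The suffix of its 1 probe set (_s_at) marks probes that may match more than 1 transcript.

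Ctnnb1 was nearly level. On the probe set of highest level, beta-catenin read 12.92, 12.82, 13.00 and 12.89 in KO1 to KO4 and 12.68, 12.73, 12.79, 12.58 and 12.77 in WT1 to WT5. The knockout arrays all lay just above the wildtype arrays, by a difference of 0.20 (SE 0.15, 95% interval -0.14 to 0.54). The other 2 sets had differences of 0.03 and 0.22, and their groups overlapped. On the highest set the sign turned when arrays were scaled to 1 interquartile range (-0.49), and no direction is given for Ctnnb1.

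Ctnna1, alpha-catenin, had 4 probe sets. The highest read 10.58, 10.37, 11.12 and 10.96 in KO1 to KO4 and 10.32, 9.96, 10.32, 10.12 and 10.03 in WT1 to WT5. The groups did not overlap, though KO2 came close to the highest wildtype arrays. The difference was 0.62 (SE 0.25, 95% interval 0.05 to 1.19), with 0.27 in batch 1 and 0.85 in batch 2, and it did not pass over all genes. The next set gave 0.55 and the third 0.26, both with overlapping groups, and the lowest set, under the filter, gave -0.60.

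Ctnnd1, p120-catenin, had 3 probe sets that went different ways. The one of highest level read 6.002, 5.93, 5.74 and 5.06 in KO1 to KO4 and 5.56, 6.43, 5.80, 6.16 and 5.93 in WT1 to WT5, with a difference of -0.33 (SE 0.33, 95% interval -1.10 to 0.43). The other 2 gave 0.79 and 0.70, with 2.22 and 2.55 in batch 1 against -0.16 and -0.53 in batch 2. All 3 had overlapping groups and low levels, and none passed the test with all arrays. In the fit without WT2 the other 2 passed as higher, at 2.22 and 2.55.

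**Figure D3:**
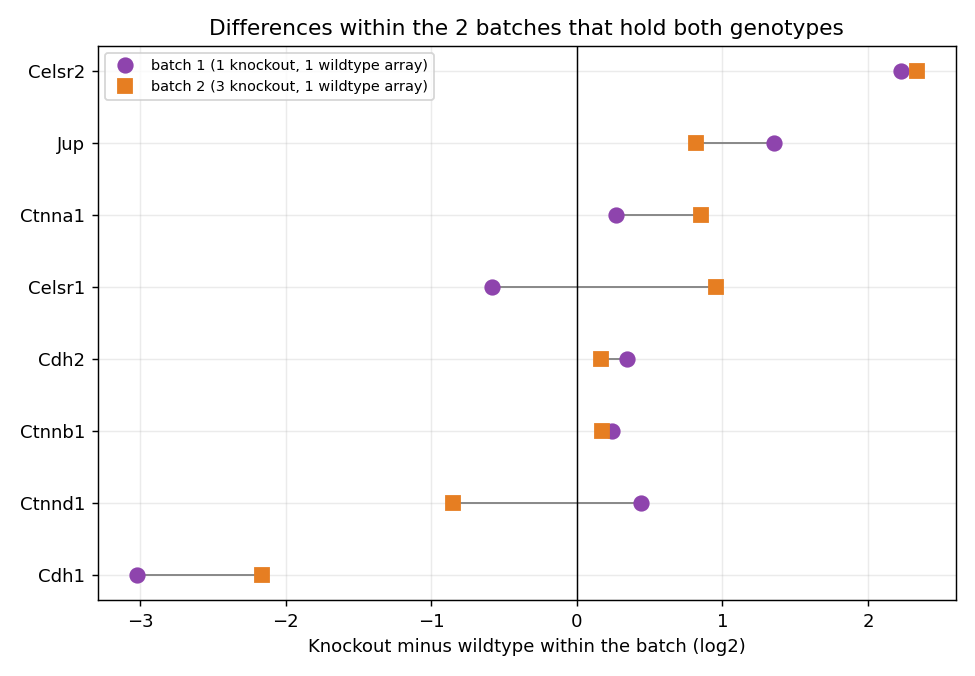
Knockout minus wildtype (log2, horizontal axis) within batch 1 (circles, 1 array per genotype) and batch 2 (squares, 3 knockout arrays and 1 wildtype array) for the 8 genes above the filter. Celsr2 differs by 2.23 and 2.33, Cdh1 by -3.02 and -2.16, while Celsr1 and Ctnnd1 change sign between the batches.

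Of the 8 genes, 6 had the same sign in batches 1 and 2. KO2 was the knockout array nearest to the wildtype mean in 5 of the 8. Neither count was made over all genes, so neither is read as a trait of these genes. The deviation of KO2 from the wildtype mean was -1.41 for Cdh1, against -3.17 to -2.71 on the other knockout arrays. For Jup it was 0.58 against 0.95 to 1.26. For Celsr2 it was 2.14 against 2.23 to 2.31, so KO2 differed little from the rest there.

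Other genes of the same pathways were taken from lists, also drawn up with earlier results known, and tested in the same fit. Among 24 other cadherin superfamily genes tested, 1 rose and 1 fell, where 7.88% of all genes passed as higher and 3.37% as lower. The list had a median difference of -0.27. Cdh13, a cadherin anchored by lipid and lacking a cytoplasmic tail, fell: it averaged 6.14 ± 0.40 in knockout and 8.37 ± 0.42 in wildtype cells (log2 difference -2.19, SE 0.36, adjusted p = 0.00979 by limma). Its other 3 probe sets had levels near the filter and differences of -0.16 to 0.11, and the median over its sets gave -0.0035 (adjusted p = 0.99). Without WT1 or KO1 its difference was -1.53, and without WT2 it was -3.18. Fat1, a giant cadherin, rose: it averaged 6.96 ± 0.33 in knockout and 5.26 ± 0.27 in wildtype cells (difference 1.65, SE 0.27, adjusted p = 0.0102). Leaving out WT2 ended this call (1.68, adjusted p = 0.0663).

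Of 5 genes tested for lymphocyte receptors of E-cadherin or chains of them, 3 fell and 0 rose, where 3.37% of all genes passed as lower. The median difference was -0.84. Itgae and Itgb7 are chains of the same receptor, so the count is of genes and not of separate receptors. The iNKT markers Cd44, Tbx21 and Il2rb fell on the same arrays, while 4 of the 10 iNKT markers tested had differences above 0. The part of these markers was not tested. Itgae, the CD103 integrin chain that pairs with Itgb7 to bind E-cadherin, read 10.83, 11.66, 11.16 and 11.27 in KO1 to KO4 and 12.64, 11.90, 12.36, 12.32 and 12.20 in WT1 to WT5. All knockout arrays lay below all wildtype arrays, with KO2 and WT2 the nearest pair. The difference was -1.04 (SE 0.28, adjusted p = 0.048 by limma), and a second probe set gave -1.53. Itgb7 fell by 1.16 on the log2 scale (SE 0.28, adjusted p = 0.0358), and Itgb1, a chain of many integrins, by 0.84 (adjusted p = 0.0371). Without WT1 or KO1 the differences of Itgae and Itgb7 were -0.54 and -0.65 and did not pass (adjusted p = 0.166 and 0.111). Both calls ended too without WT3, WT4, WT5, KO3 or KO4, with differences as large as with all arrays (-1.05 to -1.02 for Itgae and -1.16 for Itgb7), while without WT2 the differences were -1.81 and -1.92. Klrg1, an inhibitory receptor of E-cadherin, had -0.69 (adjusted p = 0.276).

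Of 12 repressors and turnover factors of E-cadherin tested, 2 rose and 1 fell, where 7.88% and 3.37% of all genes did so. The list had a median of 0.05. Zeb2, a repressor of Cdh1 in epithelial cells, rose: it read 7.75, 7.38, 7.79 and 6.83 in KO1 to KO4 and 5.60, 6.09, 6.09, 5.67 and 5.81 in WT1 to WT5. The difference was 1.61 (SE 0.31, adjusted p = 0.0161 by limma). It no longer passed without WT1 or KO1 (1.24, adjusted p = 0.0572) or as the median over probe sets (0.67, adjusted p = 0.0599). Of its 5 probe sets, 1 had a difference of -1.05 (adjusted p = 0.223 over all probe sets). Sets with 1.06 and 0.60 passed there as higher (adjusted p = 0.0132 and 0.0447 by limma). Another, with 1.10, did not pass (adjusted p = 0.0816). Tcf4, which encodes the E protein E2-2, rose by 1.39 (adjusted p = 0.0149), with 2.15 when WT2 was left out and 0.89 when WT1 or KO1 was. Of its other 5 probe sets, 2 passed (1.34 and 2.10) and 3 did not (0.16 to 0.62). Both genes are also expressed in myeloid cells, and Tcf4 in plasmacytoid dendritic cells. Of 16 macrophage and dendritic cell markers tested on the same arrays, 11 had differences above 0. Passing as higher were 3, Csf1r (4.05), Cd68 (1.54) and Lyz2 (1.77), and 0 passed as lower. The plasmacytoid marker Siglech had -0.14 (adjusted p = 0.561 by limma). The part of these markers in the differences of Zeb2 and Tcf4 was not tested. Zeb1 had 0.52 (adjusted p = 0.0902) and passed as higher in 4 alternative fits: with no batch term (0.50), with batch as a random block (0.49), with the replicate block (0.55) and with the trended, robust form of eBayes (0.52). Scaling to 1 interquartile range gave -0.066, and Snai1 lay under the filter. Psen2, a catalytic subunit of gamma-secretase, which cleaves cadherins, fell by 1.42 (adjusted p = 0.0182), by 2.28 without WT2 and by 0.84 without WT1 or KO1. Its second probe set had -0.24, and the median over sets was -0.83.

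**Figure D4:**
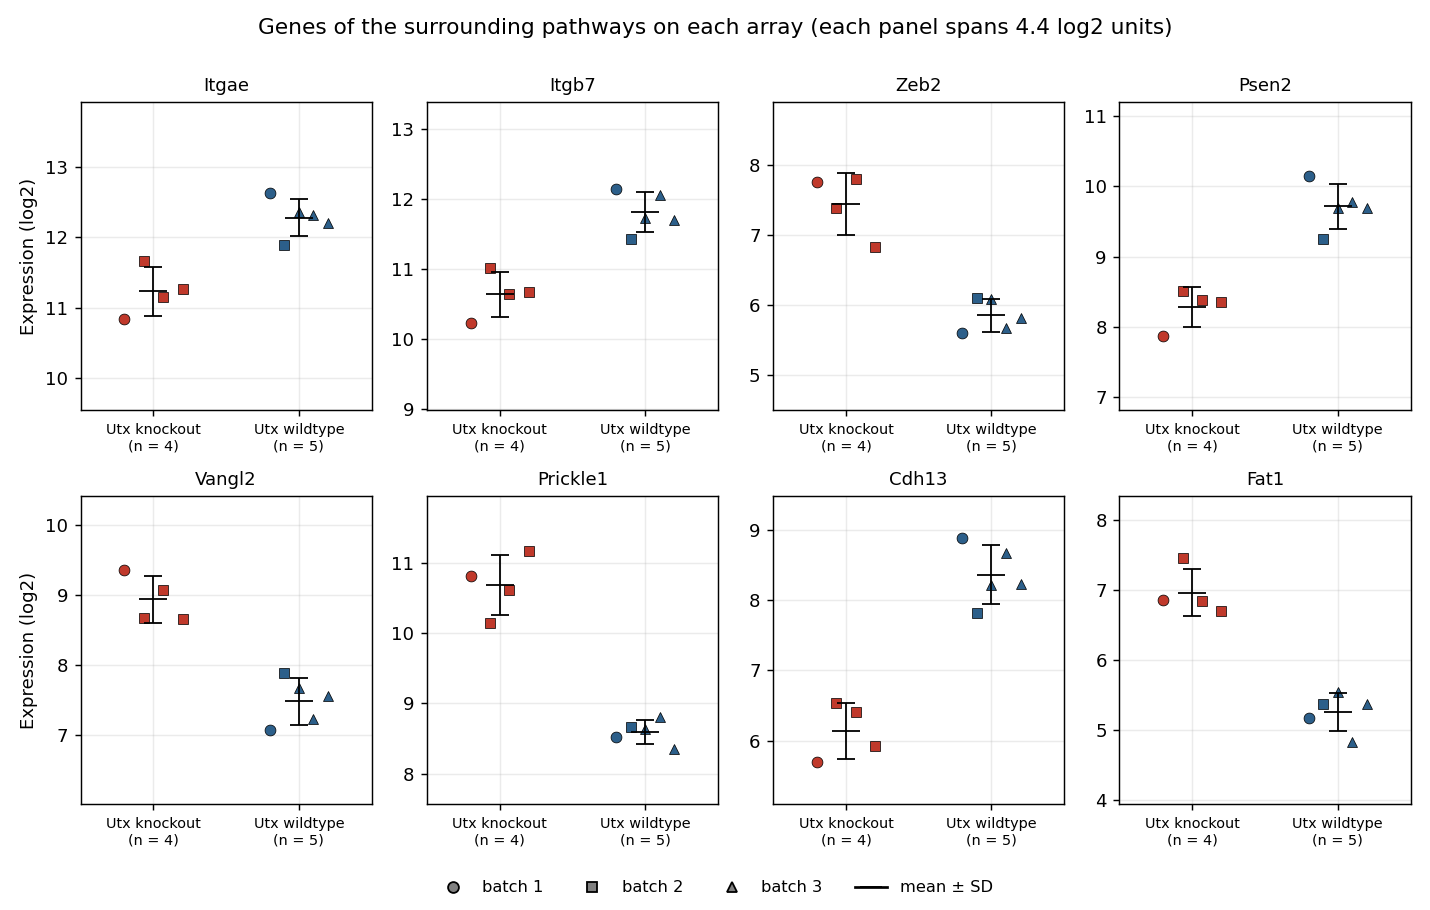
Expression (log2, vertical axis) of 8 genes of the surrounding pathways on each array, with Utx knockout (red, n = 4) left of Utx wildtype (blue, n = 5), symbols for the batch and bars for the mean ± SD. Itgae, Itgb7, Psen2 and Cdh13 are lower and Zeb2, Vangl2, Prickle1 and Fat1 higher on all knockout arrays.

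Junction partners were mixed. Among 21 other catenins and adherens junction partners tested, 1 rose and 1 fell, where 7.88% and 3.37% of all genes did so. The list had a median of 0.41. Vezt, or vezatin, a membrane protein of adherens junctions, rose by 1.74 (SE 0.34, adjusted p = 0.0171 by limma), being 0.77 higher in the pair of batch 1 and 2.38 higher in batch 2. The remaining 3 probe sets had differences of 0.06 to 0.34, and the call ended without WT2 (0.77, adjusted p = 0.27). Tjp1, the scaffold ZO-1, fell by 1.41 (SE 0.31, adjusted p = 0.0269), and did not pass without WT1 or KO1 (-1.38, adjusted p = 0.0656) and without WT2 (-1.47, adjusted p = 0.157).

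In the Wnt and beta-catenin pathway 5 of 36 genes tested rose and 0 fell, with a median of 0.25. Over all genes, 7.88% passed as higher. The 5 were Fzd7, Rnf43, Dvl2, Bcl9 and Csnk1e, of which Dvl2, a transducer shared with the polarity pathway, had 1.20 (adjusted p = 0.0263; 0.57 in batch 1 and 1.62 in batch 2), Bcl9, a beta-catenin cofactor, 0.97 (adjusted p = 0.0351) and Csnk1e, a casein kinase, 0.70 (adjusted p = 0.026). Fzd7, a Wnt receptor, rose by 1.25 (adjusted p = 0.0474 by limma), a call that ended in 6 of the 9 fits that left out 1 array (0.96 to 1.70, with adjusted p of 0.0612 to 0.149, for WT1, WT2, WT4 and for KO1, KO3 and KO4 left out in turn). Its second probe set had -0.10, and the median over both was 0.58 (adjusted p = 0.11). Rnf43, a ligase that removes Wnt receptors, rose by 1.20 (adjusted p = 0.0278), but did not pass when WT2 (0.59), KO3 (1.17) or KO4 (1.17) was left out (adjusted p 0.0541 to 0.467). Axin2, a common target of beta-catenin, had -0.60 (adjusted p = 0.082), with every knockout array (9.08 to 9.46) below every wildtype array (9.67 to 10.12). It passed as lower in 5 alternative fits: after another quantile normalization (-0.87), after scaling to 1 interquartile range (-0.94), with no batch term (-0.62), with batch as a random block (-0.65) and with the replicate block (-0.62). Apc and Gsk3b, of the complex that destroys beta-catenin, had 0.69 (adjusted p = 0.276) and 0.29 (adjusted p = 0.308), and Lef1, a partner of beta-catenin on DNA, had 0.19 (adjusted p = 0.501). As the median over their probe sets, Gsk3b (0.94, adjusted p = 0.0211) and Lef1 (0.72, adjusted p = 0.0317) passed as higher, whereas scaling to 1 interquartile range turned both below 0 (-0.37 and -0.50). Tcf7 had no probe set of its own.

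Planar cell polarity partners of the Celsr proteins had 3 of 14 tested higher and 0 lower, with a median of 0.40; these were Prickle1, Vangl2 and Dvl2. Over all genes, 7.88% passed as higher. Prickle1, a cytoplasmic core protein, rose: it read 10.82, 10.15, 10.62 and 11.17 in KO1 to KO4 and 8.53, 8.66, 8.63, 8.81 and 8.36 in WT1 to WT5. The gap between the groups was wider than either range (difference 2.11, SE 0.28, adjusted p = 0.005 by limma). Its other 2 probe sets gave 0.60 and 0.43 and did not pass, nor did the median over its sets (0.60, adjusted p = 0.0891). Vangl2, the membrane partner of Celsr proteins in polarity, read 9.36, 8.67, 9.06 and 8.66 in KO1 to KO4 and 7.07, 7.89, 7.66, 7.22 and 7.56 in WT1 to WT5 and rose (1.46, SE 0.30, adjusted p = 0.0218). Its other 2 sets gave 1.16 and 1.14. Without WT1 or KO1 the call ended (0.91, adjusted p = 0.0588; 2.29 without WT2), and so it did without KO3 (1.42, adjusted p = 0.05003). The double-positive thymocyte markers described above were higher on the same knockout arrays as Celsr2, Prickle1 and Vangl2, and their part in these differences was not tested.

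**Figure D5:**
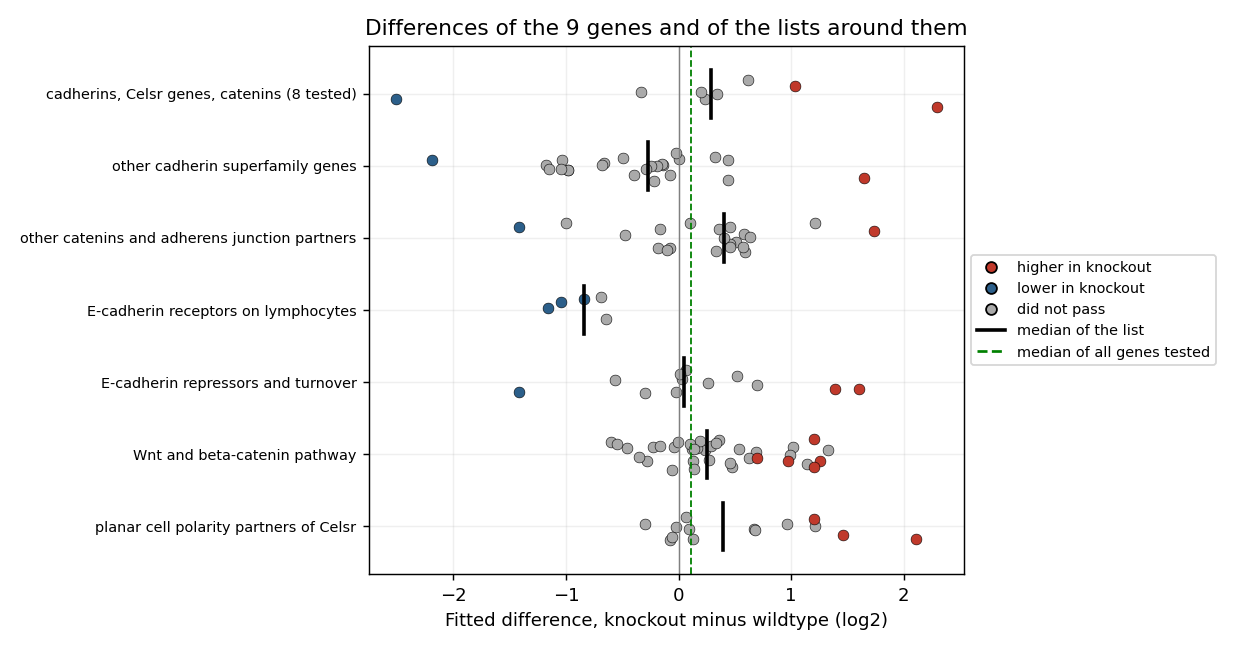
Fitted difference, knockout minus wildtype (log2, horizontal axis), of each gene tested, by list; red points passed as higher, blue as lower and grey did not pass, black bars give the median of the list and the dashed line the median of all genes tested (0.11). The 5 genes for E-cadherin receptors or their chains all lie below 0, and the polarity partners hold 3 red and 0 blue points.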

How the data were processed

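Expression was measured on 9 arrays of 45101 probe sets. Per the submitters' processing notes, the deposited log2 values were made with RMA by the authors; no version is given. Deviations of KO1 and WT1 from their group means correlated at -0.92 across genes. The mean deviation of the 3 batch 3 arrays had an SD of 0.01 (log2) against 0.19 to 0.25 for 1 wildtype array. Batch means of these deviations from the genotype means were thus nearly equal, as in values adjusted for batch with genotype kept. The sources used here do not say whether an adjustment was made. SDs, overlaps and within-batch differences come from these values and would carry an adjustment. The fitted differences, SEs, intervals and adjusted p-values rest on the same values. What an adjustment would do to them was not tested. Arrays give no depth; the precision is limited by how many there are. Nothing says whether replicates are separate animals or pools.

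Gene names came from the platform annotation; 34945 probe sets had 1 gene, 932 several and 9160 none. Each gene was represented by its set of highest mean, kept above the 25th percentile (4.54), and fitted with limma (version 3.58.1, R 4.3.3; genotype plus batch, 5 residual and 3.50 prior degrees of freedom, two-sided, Benjamini-Hochberg at 0.05). A second fit took all 45037 non-control probe sets, and its values are used for sets that do not represent a gene. The fit was tested on simulated data. Members and lists were chosen with earlier results of these data known. Genes named are the members, the 4 nearest to Cdh1, and the 2 of largest rise and fall called in each list that is no marker list. Itgae, Klrg1, Tcf7, Lef1, Axin2, Apc, Gsk3b, Zeb1, Zeb2, Snai1 and Vangl2 were named whatever their result. Itgb1, Dvl2, Bcl9, Csnk1e, Ccl25, Foxn1, Epcam, Psmb11, Cd3e and Zbtb16 were named after their values were seen. So were the markers Cd44, Tbx21, Il2rb, Csf1r, Cd68, Lyz2 and Siglech. Alternatives covered the batch term, replicate block, filter, scaling, probe set choice, eBayes settings and arrays left out.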

Additional observations from a re-analysis of the deposited data

How the results depend on the processing

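The contrast that chose the genes was fitted in 20 alternative ways, which describe the values and support nothing. The difference of Cdh1 ranged from -3.02 to -2.16, of Celsr2 from 1.19 to 2.33 and of Jup from 0.76 to 1.35. Jup did not pass in 11 of these fits, and Cdh1 did not pass in 1. Genes passing as higher numbered 4 with batch as a random block, and 1 each after another quantile normalization, after scaling to 1 interquartile range and without the batch 3 arrays, where 0 passed as lower; leaving out 1 array gave 1 to 2 higher and 1 to 1 lower. In the probe set fit 2 were higher and 1 lower, against 6 and 2 with no batch term, 1 to 3 and 0 to 2 leaving out 1 array. With the replicate number as a replicate block in place of batch, 3 of the 8 passed as higher (Ctnna1 too, 0.58) and 1 as lower; same-numbered arrays deviated together in 1 of 4 pairs only (correlation over 0.1), which was not enough to treat the numbers as pairs; the first pair is alone in batch 1, where the deposited values are nearly balanced, so its correlation of -0.92 does not bear on pairing. Without the batch 1 pair, a fit added after seeing the data and equal to leaving out WT1 or KO1, 2 were higher and 1 lower. Calls among all genes numbered 1634, against 6342 with no batch term, 10045 with a random block, 4290 with the replicate block and 340 without batch 3. Calls of list genes also ended in fits that are not named above. Of 20 alternative fits, the call of Vangl2 ended in 6, of Zeb2 in 5, of Tjp1 in 5 and of Vezt in 3. Those of Tcf4 and Psen2 each ended in 1 of 20, and that of Rnf43 in 4 of 19.

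Scaling to 1 interquartile range moved the median of all genes to -0.06 and turned Ctnnb1 (-0.49), Lef1 (-0.50), Gsk3b (-0.37) and Zeb1 (-0.066). The median over probe sets turned Ctnnd1 (0.75), and another quantile normalization the second set of Ctnnb1 (-0.21). Leaving out 1 array moved Celsr1 between -0.58 and 0.96, Ctnnd1 between -0.85 and 0.44, its other sets between -0.16 and 2.22 and between -0.53 and 2.55, the second set of Ctnnb1 between -0.12 and 0.26, and the 2 lower sets of Ctnna1 between -0.46 and 0.74 and between -1.02 and 0.022. The cause was not tested. With 1 wildtype array in each batch that holds knockout arrays, every difference rests on WT1 and WT2.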
